A study of Mus musculus with 60 samples.

Results

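A set of 6 genes of zinc handling was followed through a culture system and a regenerating organ. They were the metallothioneins Mt1 and Mt2, the metal-sensing transcription factor Mtf1, the zinc importer Slc39a14 (ZIP14) and the zinc exporters Slc30a1 (ZnT1) and Slc30a10 (ZnT10), chosen by name. These 6 members stand among 19355 gene symbols in the table of cultured cells and 17473 in the table of livers, and all 6 are listed and passed the filter on low values in both.

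The study grew mouse hepatocytes with interleukin 6 (IL6) and sequenced their RNA beside RNA of livers regrowing after partial hepatectomy (PHX), the surgical removal of part of the liver. The cell table held 33 samples in 11 groups of 3. Freshly isolated hepatocytes (Hepatocytes) were the control. IL6-iHPCs, the proliferating cells with progenitor features, were taken on day 3 and day 14 of the first culture (IL6-iHPCs-D3 (P0) and IL6-iHPCs-D14 (P0)) and as passaged lines: mouse-1 at passages 10 and 35, mouse-2 at passage 10 and clone-1 at passage 20. Each of these lines was also taken after maturation, as IL6-iMHs. The liver table held 18 samples in 6 groups of 3, a normal liver group and livers 6 h, 24 h, 3 days, 7 days and 14 days after PHX.

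All groups are labelled C57BL/6 and wild type, and the study's methods give C57BL/6J mice of 8 to 10 weeks. The expansion medium held 30 ng/ml IL6, EGF, HGF and 100 nM dexamethasone, a synthetic glucocorticoid. The maturation medium, used for 7 days, held 1000 nM dexamethasone and 20 ng/ml oncostatin M (OSM, a cytokine of the IL6 family) and no IL6, so that maturation changed several agents at once. No cell group had IL6 as its only difference from Hepatocytes, which were not cultured. Clone-1 is 1 clone, and both mouse-1 lines are 1 mouse at different passages. The study's text describes its clones as grown from single hepatocytes marked with tdTomato, from Albumin-Cre mice crossed with R26RtdTomato mice, a genotype that the clone-1 labels do not give. The cell samples of a group are described in the study's legends as technical repeats. Spread and p-values in the cell table therefore cover technical error. Livers were whole tissue, in which fewer cells of a type and less RNA per cell cannot be told apart. No liver group is labelled as sham-operated, so the operation as such cannot be told apart from the loss of liver tissue.

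Metallothioneins are small, cysteine-rich proteins that bind zinc and copper and buffer them in the cytosol. Their transcription is driven by MTF1, which binds metal response elements when free zinc rises, and is also increased by glucocorticoids and, in the liver, by IL6 as part of the acute phase response. ZIP proteins bring zinc into the cytosol and ZnT proteins take it out. ZIP14 is the main carrier of zinc into hepatocytes in inflammation and also carries manganese and non-transferrin-bound iron, ZnT1 sits in the plasma membrane and is itself a known MTF1 target, and ZnT10 exports manganese.

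Mt1 (chr8:94178883-94180327) and Mt2 (chr8:94172618-94173567) are neighbours on chromosome 8, in 1 cluster with the paralogs Mt3 (chr8:94152607-94154148) and Mt4 (chr8:94137204-94139031), by RefSeq's annotation of GRCm38.p6 (mm10). Slc30a1 (chr1:191906697-191913248) and Slc30a10 (chr1:185454848-185468762) lie on chromosome 1, Mtf1 (chr4:124802549-124849800) on chromosome 4 and Slc39a14 (chr14:70303467-70351452) on chromosome 14. Promoter sequences matched 5 of the 6 members. The promoters that held the core letters of the metal response element are printed because this element is the link between MTF1 and its targets. Each line holds the 250 bases before the start in the RefSeq promoter set, 5′ to 3′ on the gene's strand. Capitals mark a match to TGCACNC or TGCGCNC on either strand.
Mt1, chr8:94178839-94179088, + strand: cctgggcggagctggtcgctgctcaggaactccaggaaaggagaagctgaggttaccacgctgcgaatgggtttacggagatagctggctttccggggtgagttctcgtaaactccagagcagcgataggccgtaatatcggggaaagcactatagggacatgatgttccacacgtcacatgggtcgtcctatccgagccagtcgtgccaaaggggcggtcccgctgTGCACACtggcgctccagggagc
Mt2, chr8:94172368-94172617, + strand: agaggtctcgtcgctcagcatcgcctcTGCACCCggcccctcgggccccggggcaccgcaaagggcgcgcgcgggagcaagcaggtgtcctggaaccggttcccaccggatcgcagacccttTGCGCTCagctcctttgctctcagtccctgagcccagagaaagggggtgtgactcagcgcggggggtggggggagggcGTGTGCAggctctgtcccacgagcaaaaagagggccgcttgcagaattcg
Slc30a1, chr1:191906531-191906780, + strand: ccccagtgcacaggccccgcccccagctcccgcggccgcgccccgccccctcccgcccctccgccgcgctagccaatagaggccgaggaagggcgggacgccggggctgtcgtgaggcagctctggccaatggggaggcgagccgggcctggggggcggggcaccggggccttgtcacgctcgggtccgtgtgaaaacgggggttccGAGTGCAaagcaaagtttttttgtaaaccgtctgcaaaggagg
Slc30a10, chr1:185454598-185454847, + strand: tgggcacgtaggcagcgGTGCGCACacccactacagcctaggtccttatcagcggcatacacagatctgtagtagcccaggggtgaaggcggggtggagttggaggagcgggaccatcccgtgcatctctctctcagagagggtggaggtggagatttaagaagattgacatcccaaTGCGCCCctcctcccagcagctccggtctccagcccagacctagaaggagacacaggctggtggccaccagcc

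The Mt2 window held 3 such matches, the Slc30a10 window 2, and the Mt1 and Slc30a1 windows 1 each. The Mtf1 window held none. Among 32851 promoter windows of the same length, 21.41% held at least 1 match, 4.30% at least 2 and 0.77% at least 3, counting overlapping matches once. In Slc30a10 the match at positions -233 to -226 from the start was a pair of overlapping matches on opposite strands. The antioxidant response core TGACNNNGC, searched on both strands, was found once in the Mt2 window and once in the Slc30a1 window, against 10.16% of all windows, and it overlapped no metal response match. The STAT site TTCNNNGAA, also searched on both strands, was in none of the 5 windows and in 7.02% of all windows. A match is a description of letters. The windows of Mt1 and Slc30a1 end inside the annotated gene, since the promoter table uses a later start there. The metal response matches of both windows lie inside the annotated gene too. GENCODE also annotates Mt1 transcripts that start at 94179211 and 94179241 and an Mt2 transcript that starts at 94172860, downstream of the bases searched.

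**Figure D1:**
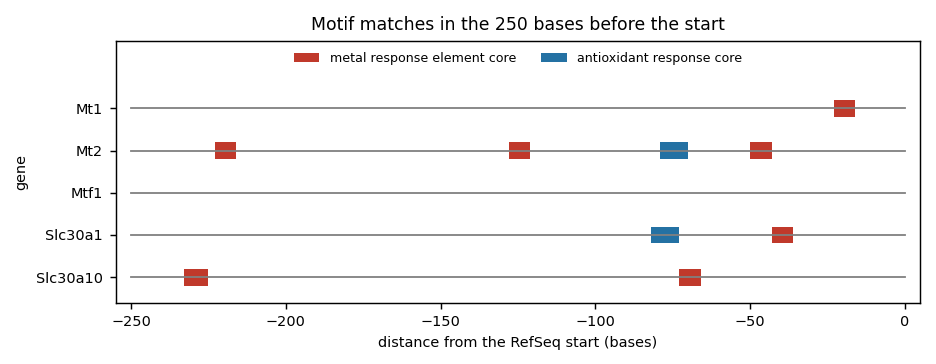
Matches to the metal response element core (red) and to the antioxidant response core (blue) in 250 bases of 5 of the 6 genes. These are the bases before the start in the RefSeq promoter set, which for Mt1 and Slc30a1 lies inside the annotated gene. The horizontal axis is the distance from the start in bases and each line is a gene. Mt2 has 3 red matches, Slc30a10 has 2, Mt1 and Slc30a1 have 1 each and Mtf1 has none.

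Values are FPKM, fragments per length of transcript and per depth of the library, and can be compared between genes because they are per length. Fold changes are on the scale of log2(FPKM + 1), which understates those of low genes. A gene was called higher or lower at an adjusted p under 0.05 (limma, Benjamini-Hochberg over all genes tested) and a change of at least 2-fold. Libraries held 49.3 to 88.8 M reads assigned to genes among the cells and 52.0 to 79.2 M among the livers, as recovered from the FPKM steps. Many genes were higher in cultured cells than in Hepatocytes, with a median log2 fold change over all genes of 1.14 on D3, 1.00 on D14, 0.94 after passaging and 0.46 after maturation. Each change of a member against Hepatocytes is therefore also given after scaling every sample to a common median ratio ("scaled"), and so are counts of other gene lists. Scaling brought these medians to between -0.01 and 0.08. Other comparisons also had medians past 0.1 in size. They were -0.16 for D14 against D3 and -0.41 for IL6-iMHs against IL6-iHPCs, with -0.17 and -0.35 in the P10 lines of mouse-1 and mouse-2, -0.38 for clone-1 and -0.59 for the P35 line. The median was 0.36 for P35 against P10 of mouse-1, and -0.36 and -0.18 for the maturation change of mouse-1 (P35) and of mouse-2 (P10) minus that of mouse-1 (P10). In the livers it was -0.28 for PHX-6h, 0.13 for PHX-D7, 0.24 for PHX-24h against PHX-6h and -0.24 for PHX-D14 against PHX-D7. All comparisons with Hepatocytes share the same 3 control samples, and all comparisons with normal liver share theirs.

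The hepatocyte marker list (10 genes) summed to between 84679 and 88901 FPKM in Hepatocytes, 5353 to 26652 FPKM in all IL6-iHPC groups and 70984 to 92807 FPKM in IL6-iMHs. Markers of other cells were also measured. In Hepatocytes, Kupffer cell markers (8 genes) summed to 14.6 to 16.8 FPKM and red blood cell markers (7 genes) to 107 to 124 FPKM, with none of either list at 0, against 0.065 to 0.211 and 0.322 to 0.437 FPKM on D3, where 3 Kupffer cell and 5 red blood cell markers were at 0. Cholangiocyte markers (6 genes), which hepatic progenitors share, summed to 3.84 to 3.94 FPKM in Hepatocytes, 355 to 529 on D3 and 2699 to 10977 in passaged IL6-iHPCs. In IL6-iMHs they summed to 200 to 1408 FPKM, and 3 of the 4 tested were called higher than in Hepatocytes. Of the 10 hepatocyte markers, 3 were called lower and 0 higher in IL6-iMHs (scaled 5 and 0). The share of all genes called in that comparison was 32.6%. The part of these differences in the results was not tested.

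Metallothionein RNA was far higher in culture than in Hepatocytes. Mt1 was at 44.0, 42.2 and 37.8 FPKM in the 3 Hepatocytes samples and at 786, 708 and 721 FPKM on D3. The lowest D3 sample lay far above the highest Hepatocytes sample, and among all genes of a sample Mt1 moved from rank 1420 to 1546 up to rank 33 to 36. Mt2 was lower than Mt1 in Hepatocytes, at 15.7, 19.8 and 16.4 FPKM, and reached 962, 955 and 829 FPKM on D3. The log2 fold change on D3 was 4.13 (SE 0.15, adjusted p = 6.35e-21; scaled 2.52) for Mt1 and 5.65 (SE 0.14, adjusted p = 3.84e-25; scaled 4.06) for Mt2. With Slc39a14 and Mtf1, 4 of the 6 members were called higher on D3 and Slc30a10 was called lower, where 66.0% of all genes tested were called.

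Both metallothioneins stood higher again on day 14. Mt1 was at 1729, 2210 and 1737 FPKM and Mt2 at 1645, 2061 and 1421 FPKM, above every D3 sample. Against D3 the log2 fold change of Mt1 was 1.35 (SE 0.15, adjusted p = 8.74e-09) and it was the 1 member called, with 10.2% of all genes called. Mt2 changed by 0.89 (SE 0.14, adjusted p = 2.85e-06), short of 2-fold, and by 1.07 scaled, which is past it. Against Hepatocytes, all 6 members were called on D14, 5 higher and Slc30a10 lower, with 62.9% of all genes called.

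Passaged IL6-iHPCs kept high metallothionein RNA, at levels that differed between lines. Mt1 was highest in mouse-2 (P10) at 3859, 4230 and 3969 FPKM and in mouse-1 (P10) at 2545, 4100 and 3288 FPKM, which overlap. It was lower in clone-1 (P20), at 1129, 1319 and 1617 FPKM, and in the P35 line of mouse-1, at 1217, 1040 and 1115 FPKM, and the samples of these lines also overlap. Mt2 was at 3733, 3360 and 4177 FPKM in mouse-2 (P10) and 2132, 3271 and 2575 FPKM in mouse-1 (P10). It was at 1380, 1737 and 1975 FPKM in clone-1 (P20) and 1643, 1310 and 1454 FPKM in mouse-1 (P35). These 2 lines overlap, with the lowest mean in mouse-1 (P35). Over the mean of the 4 lines, the log2 fold change against Hepatocytes was 5.64 (SE 0.12, adjusted p = 6.78e-27; scaled 4.31) for Mt1 and 6.93 (SE 0.11, adjusted p = 4.55e-30; scaled 5.62) for Mt2. With Slc39a14 and Slc30a1 higher and Slc30a10 lower, 5 of 6 members were called, beside 59.4% of all genes.

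After maturation, in medium without IL6, metallothionein RNA remained far above Hepatocytes. Mt1 was at 3895, 4046 and 4872 FPKM in IL6-iMHs of mouse-1 (P10), where it ranked 9 to 12 among all genes of a sample. It was at 4590, 5133 and 3195 FPKM in mouse-2 (P10), 2278, 2400 and 2245 FPKM in clone-1 (P20) and 1395, 1491 and 1210 FPKM in mouse-1 (P35). Mt2 was lowest in IL6-iMHs of mouse-1 (P35), at 864, 746 and 696 FPKM, below every other cultured group except D3, whose lowest sample was at 829 FPKM. Against Hepatocytes, Mt1 was higher by a log2 fold change of 6.02 (SE 0.12, adjusted p = 2.5e-27; scaled 5.23) and Mt2 by 6.77 (SE 0.11, adjusted p = 1.44e-29; scaled 6.01). Of the 6 members 4 were called higher and 1 lower in IL6-iMHs, with 32.6% of all genes called.

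**Figure D2:**
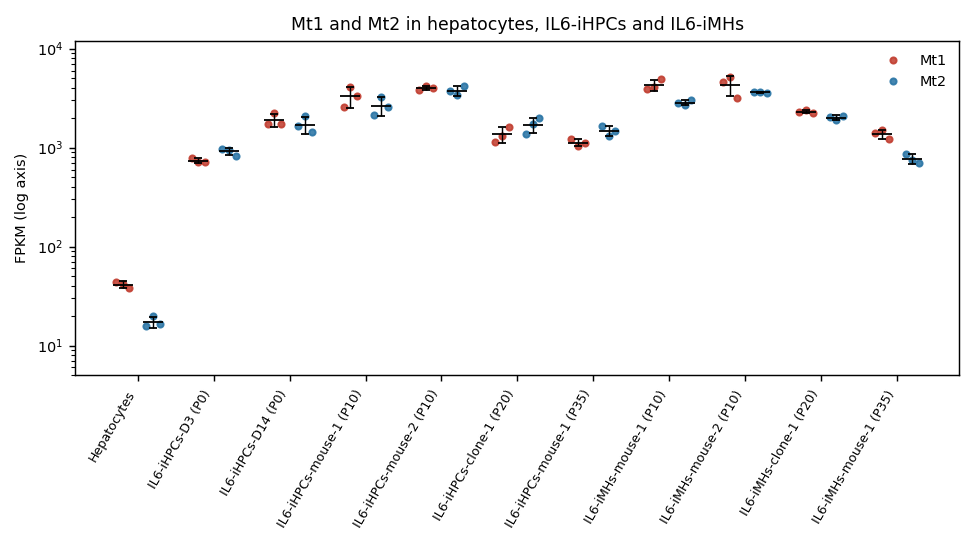
FPKM of Mt1 (red) and Mt2 (blue) in each sample of the 11 cell groups on a log axis, with the mean (bar) and SD of the 3 samples. Both genes sit at or below 44.0 FPKM in Hepatocytes and at or above 696 FPKM in every other sample, and Mt1 exceeds Mt2 in Hepatocytes but not on D3.

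The balance of both genes also differed between groups. Mt1 divided by Mt2, both in FPKM, was 2.13 to 2.81 in Hepatocytes and 0.741 to 0.869 on D3, without overlap. In passaged IL6-iHPCs it was between 0.741, in mouse-1 (P35), and 1.28, in mouse-1 (P10). In IL6-iMHs of mouse-1 (P35) it was 1.61 to 2.00, against 0.741 to 0.794 in the IL6-iHPCs of that line.

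The remaining paralogs were far lower. Mt3, a metallothionein known from brain, and Mt4, known from stratified epithelium, were listed at 0 in all Hepatocytes samples. On D14, Mt3 was at 6.30, 5.85 and 7.31 FPKM and Mt4 at 2.97, 2.40 and 3.00 FPKM. Mt3 was highest in clone-1 (P20), at 14.7, 17.0 and 22.7 FPKM in IL6-iHPCs and 12.3, 11.6 and 9.50 FPKM in IL6-iMHs, while its other passaged groups stayed at or below 1.61 FPKM. Mt4 was highest in IL6-iMHs of mouse-2 (P10), at 72.1, 68.6 and 71.4 FPKM. All 4 metallothioneins were called higher against Hepatocytes on D14, after passaging and after maturation, with 62.9%, 59.4% and 32.6% of all genes called. Mt3 and Mt4, at 0 in Hepatocytes, could not be called lower and passed the filter only through cultured groups. In IL6-iMHs of mouse-1 (P35), Mt4 was at 0.186, 0 and 0.082 FPKM and Mt3 at 0.068, 0 and 0.417 FPKM. These paralogs lie beside Mt1 and Mt2, whose reads outnumber theirs by far, and how shared or read-through reads were assigned is not given in the sources used here, so their levels are uncertain.

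Mtf1, the factor that senses zinc and switches on metallothionein genes, followed another course. It was at 1.54, 1.87 and 1.29 FPKM in Hepatocytes and peaked at 9.51, 8.45 and 9.73 FPKM on D3. It was at 5.55, 5.56 and 5.27 FPKM on D14, about 4 FPKM in both P10 lines (3.84 to 4.41 FPKM), and 1.76 to 2.18 FPKM in clone-1 (P20) and mouse-1 (P35). The groups on D3 and D14 do not overlap each other or any other group, and of the later lines clone-1 (P20) overlaps Hepatocytes while mouse-1 (P35) lies just above. The log2 fold change was 2.00 on D3 (SE 0.08, adjusted p = 3.16e-20; scaled 0.77, no longer called) and 1.34 on D14 (SE 0.08, adjusted p = 8.01e-16; scaled 0.29, no longer called). With quantile normalization the D14 value turned to -0.10. In passaged IL6-iHPCs it was 0.60 (SE 0.06), not called, and -0.31 scaled. In IL6-iMHs it was 0.15 (SE 0.06), not called, and -0.41 scaled. In the rank of the genes of a sample Mtf1 stood between 6583 and 7128 on D3 and between 7560 and 7986 in Hepatocytes. On D14 it stood between 7914 and 8115, which overlaps Hepatocytes. It ranked 8180 to 9937 in passaged IL6-iHPCs and 8054 to 9812 in IL6-iMHs, further down than in any Hepatocytes sample.

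Slc39a14, the ZIP importer induced in inflamed liver, was higher in every cultured sample than in any Hepatocytes sample. It was at 19.4, 22.0 and 19.1 FPKM in Hepatocytes and 131, 136 and 128 FPKM on D3. It was at 174, 173 and 176 FPKM on D14 and at 219.7 to 242 FPKM in the P10 lines. The later lines were lower, at 109, 114 and 89.7 FPKM in clone-1 (P20) and 78.1, 80.4 and 79.4 FPKM in mouse-1 (P35). The log2 fold change was 2.65 on D3 (SE 0.08, adjusted p = 3.32e-23; scaled 1.06), 3.05 on D14 (SE 0.08, adjusted p = 1.13e-24; scaled 1.65), 2.78 in passaged IL6-iHPCs (SE 0.06, adjusted p = 2.36e-26; scaled 1.47) and 1.93 in IL6-iMHs (SE 0.06, adjusted p = 5.24e-22; scaled 1.15). It was called with and without scaling in all 4.

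Slc30a1, the exporter of the plasma membrane, was at 7.35, 8.02 and 6.73 FPKM in Hepatocytes and 12.4, 14.1 and 12.8 FPKM on D3. It was at 22.5, 21.6 and 23.6 FPKM on D14, and highest in mouse-1 (P10) at 57.6, 57.6 and 60.1 FPKM and mouse-2 (P10) at 38.1, 36.7 and 38.1 FPKM. Clone-1 (P20) and mouse-1 (P35) were back at 10.3 to 12.3 and 15.1 to 15.8 FPKM. On D3 the log2 fold change was 0.75 (SE 0.07), not called, and -0.73 scaled, so the direction rests on the scaling. In passaged IL6-iHPCs it was 1.65 (SE 0.06, adjusted p = 5.4e-22) and in IL6-iMHs 1.17 (SE 0.06, adjusted p = 6.42e-18), and scaled values were 0.42 and 0.44, short of 2-fold. On D14, too, its call (1.50, SE 0.07) was lost on scaling, at 0.17.

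Slc30a10, the manganese exporter, was the member that fell. It was at 7.58, 8.35 and 7.81 FPKM in Hepatocytes and 0.355, 0.440 and 0.458 FPKM on D3, and at 0.106, 0.106 and 0.164 FPKM on D14, which is 33 to 53 reads per library. Both P10 lines were above D14, at 2.45, 2.50 and 2.68 FPKM in mouse-1 and 1.08, 1.10 and 0.988 FPKM in mouse-2. In mouse-1 (P35) not 1 read was found in the 3 IL6-iHPC libraries, which allows up to 3 reads a library (0.00696 to 0.00877 FPKM), so that the mean of Hepatocytes was at least 902-fold higher. This limit covers counting error. In clone-1 (P20), the 3 IL6-iHPC libraries held 0, 2 and 1 reads.

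Slc30a10 was called lower on D3 with a log2 fold change of -2.65 (SE 0.06, adjusted p = 1.76e-25; scaled -3.76), on D14 with -2.99 (SE 0.06, adjusted p = 9.48e-27; scaled -3.98), in passaged IL6-iHPCs with -2.44 (SE 0.05, adjusted p = 2.8e-27; scaled -3.42) and in IL6-iMHs with -2.43 (SE 0.05, adjusted p = 5.95e-27; scaled -3.27). The values for passaged cells depend on the constant of 1 FPKM added before the logarithm, since lines at 0 reads are in that mean.

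**Figure D3:**
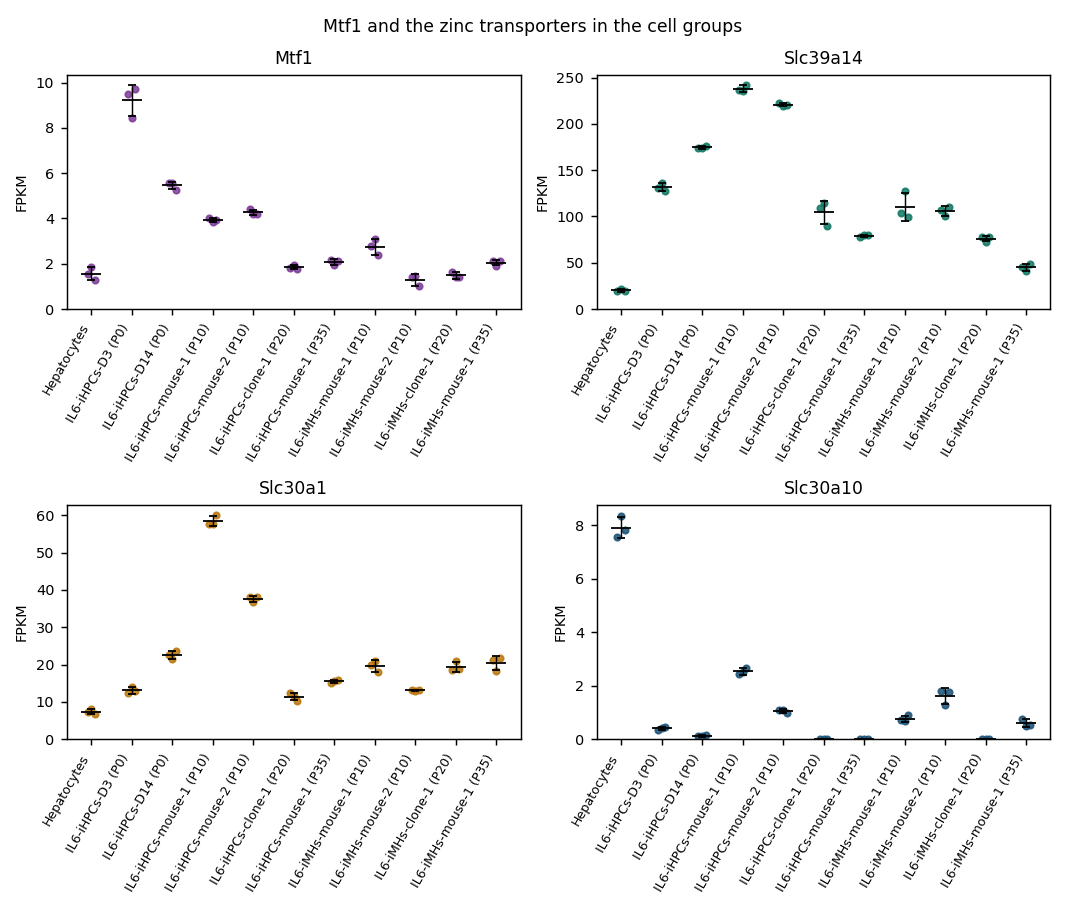
FPKM of Mtf1, Slc39a14, Slc30a1 and Slc30a10 in each sample of the 11 cell groups, with the mean (bar) and SD of 3 samples, on axes from 0. Mtf1 peaks on D3 near 9 FPKM, Slc39a14 and Slc30a1 peak in the P10 lines, and Slc30a10 is highest in Hepatocytes near 8 FPKM and at 0 reads in IL6-iHPCs of mouse-1 (P35).

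Of the members, 4 fell between passage 10 and passage 35 of mouse-1, a comparison chosen after the values were seen. The log2 fold change was -1.53 (SE 0.15, adjusted p = 2.73e-10) for Mt1, -1.57 (SE 0.08, adjusted p = 4.67e-17) for Slc39a14, -1.85 (SE 0.07, adjusted p = 5.54e-20) for Slc30a1 and -1.82 (SE 0.06, adjusted p = 7.45e-21) for Slc30a10. Mt2 changed by -0.84 (SE 0.14) and Mtf1 by -0.67 (SE 0.08), short of 2-fold. Of all genes 33.7% were called, 3058 higher and 1102 lower, and the median of all genes was 0.36. Scaling made each of these falls larger except that of Slc30a10, at -1.79, and brought Mt2 past 2-fold, at -1.34. Of 12 acute phase genes 10 were called lower in the same comparison, and hepatocyte markers summed to 21292 to 23182 FPKM at passage 10 and 5353 to 5420 FPKM at passage 35. Neutrophil markers summed to 0.161 to 0.219 FPKM at passage 10 and 86.4 to 92.3 FPKM at passage 35. Cholangiocyte markers summed to 7409 to 8438 FPKM and 2699 to 2794 FPKM. The part of these differences was not tested. Both passages are 1 mouse, and passage cannot be told apart from the culture dish.

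Maturation was compared line by line, since each IL6-iMH group has its own IL6-iHPC group. Over the mean of the 4 lines none of the 6 members was called, by limma with 28.1% of all genes called, and 5 of the 6 had an unadjusted p under 0.05 (Slc30a10 at 0.756). Slc39a14 was at -0.85 (SE 0.04, adjusted p = 2.23e-18), Slc30a1 at -0.48, Mtf1 at -0.45, Mt1 at 0.38 and Mt2 at -0.15. Scaled, the order changed, with Mt1 at 0.92, Mt2 at 0.39, Slc39a14 at -0.32, Mtf1 at -0.10 and Slc30a1 at 0.03. With voom on the recovered reads, Slc30a10 was called higher, at 2.55, a value that includes the lines with 0 to 2 reads.

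Within lines, neither metallothionein was called. Scaled, Mt1 passed 2-fold in clone-1 (P20), at 1.28, and mouse-1 (P35), at 1.05. The transporters differed between lines. Slc30a1 fell from 57.6, 57.6 and 60.1 FPKM to 19.8, 21.05 and 17.9 FPKM in mouse-1 (P10), a log2 fold change of -1.53 (SE 0.07, adjusted p = 1.16e-17), and in mouse-2 (P10) it fell to 13.1, 13.0 and 13.2 FPKM, a change of -1.45 (SE 0.07, adjusted p = 1.63e-17). In mouse-1 (P35) it went from 15.1, 15.6 and 15.8 FPKM to 21.2, 18.3 and 21.7 FPKM (0.37, SE 0.07) and in clone-1 (P20) from 12.3, 11.6 and 10.3 FPKM to 18.5, 20.9 and 18.8 FPKM (0.72, SE 0.07), neither past 2-fold. Scaled, these changes were -1.25, -0.90, 1.09 and 1.17, so that the call in mouse-2 was lost and those in the last 2 lines were gained. Slc30a1 lay at 13.0 to 21.7 FPKM in all IL6-iMHs, against 10.3 to 60.1 FPKM in passaged IL6-iHPCs. Of the members, 3 were called lower in each P10 line, with 25.0% of all genes called in mouse-1 and 39.9% in mouse-2. No member was called by limma in clone-1, with 23.6% of all genes called, or in the P35 line of mouse-1, with 45.3%, while 4 of the 6 had an unadjusted p under 0.05 in each.

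Slc39a14 fell in both P10 lines, by -1.11 (SE 0.08, adjusted p = 2.62e-13) in mouse-1 and -1.05 (SE 0.08, adjusted p = 4.96e-13) in mouse-2. These calls were lost on scaling, at -0.82 and -0.47. Mtf1 was called lower in mouse-2 (P10), from 4.41, 4.22 and 4.199 to 1.403, 1.45 and 0.998 FPKM (-1.21, SE 0.08, adjusted p = 1.77e-14; scaled -0.83, not called). Slc30a10 fell in mouse-1 (P10), from 2.45, 2.50 and 2.68 to 0.725, 0.680 and 0.903 FPKM (-1.003, SE 0.06, adjusted p = 2.11e-14), just past 2-fold on the scale of log2(FPKM + 1). That call was lost on scaling, at -0.85, and without any of 3 libraries, IL6-iHPCs replicate 3 (-0.98) and IL6-iMHs replicates 1 (-0.99) and 2 (-0.97). The constant of 1 FPKM understates changes at this level, and with voom on recovered reads the change was -1.76. In mouse-2 (P10) Slc30a10 went from 1.08, 1.10 and 0.988 to 1.81, 1.27 and 1.77 FPKM (0.34, SE 0.06, scaled 0.70), not called. In mouse-1 (P35) it went from 0 reads to 178 to 246 reads a library, at 0.767, 0.515 and 0.547 FPKM, a mean at least 69.5-fold higher than the limit of 3 reads. In clone-1 (P20) it held 4 to 9 reads after maturation.

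The differences between lines were tested as such. The maturation change of mouse-1 (P35) minus that of mouse-1 (P10) was 1.90 (SE 0.10) for Slc30a1, 1.69 (SE 0.09) for Slc30a10 and -1.05 (SE 0.20) for Mt2, all called, with 33.7% of all genes called. That of mouse-2 (P10) minus mouse-1 (P10) was called for Slc30a10 alone among the members, at 1.34 (SE 0.09), with 14.7% of all genes called. That of clone-1 (P20) minus the mean of both P10 lines was called for Slc30a1 alone, at 2.21 (SE 0.09), with 32.8% of all genes called. The value of Slc30a10 in mouse-1 (P35) depends on the constant added to FPKM, since that line had 0 reads before maturation.

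**Figure D4:**
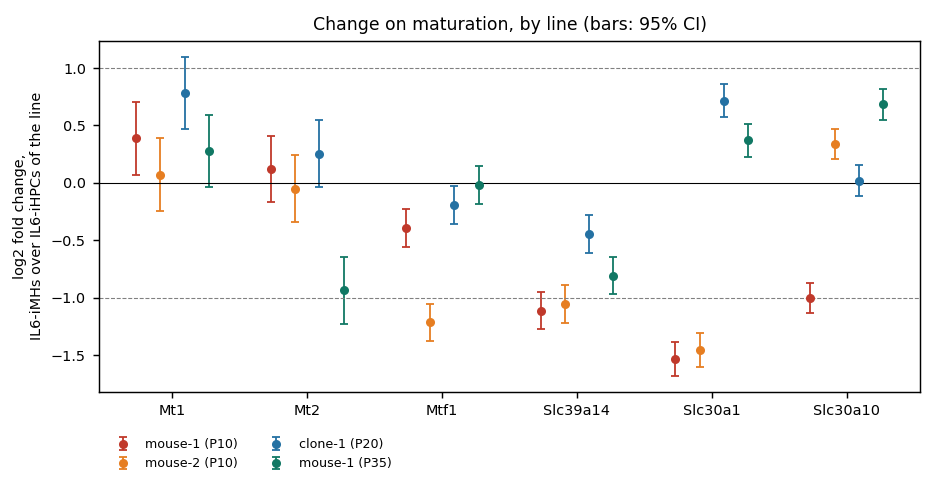
Log2 fold change of each gene on maturation, IL6-iMHs over IL6-iHPCs of the same line, with 95% intervals of the fit, in 4 lines (colours), and dashed lines at a 2-fold change. Slc30a1 lies below -1 in both P10 lines and above 0 in clone-1 (P20) and mouse-1 (P35), while Mt1 and Mt2 stay within 2-fold in all lines before scaling.

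Of 14 ZIP importers listed, Slc39a14 included, 11 were tested against Hepatocytes. On D3, 4 were called higher and 1 lower, beside 66.0% of all genes called, and scaled these counts were 3 and 3. In the passaged lines they were 4 and 2, beside 59.4% of all genes, and scaled 2 and 5. In IL6-iMHs they were 3 and 1, beside 32.6% of all genes, and scaled 2 and 4. Among all genes before scaling, 6641 were called higher and 1494 lower on D3, 5931 and 1392 in the passaged lines, and 3060 and 960 in IL6-iMHs. Slc39a6, a ZIP first known from breast cancer cells, rose by 4.31 on D3 (scaled 3.47), from a mean of 0.259 to 23.9 FPKM, and was also higher in the passaged lines (2.65, scaled 2.11) and IL6-iMHs (1.51, scaled 1.395). Slc39a8, a manganese and zinc importer, was lower in the passaged lines (-1.82, scaled -2.93) and IL6-iMHs (-2.10, scaled -2.95). Slc39a4, the intestinal importer, was lower in the passaged lines (-1.02, scaled -2.34), and Slc39a11 on D3 (-1.06, scaled -2.56).

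Of 10 ZnT exporters listed, Slc30a1 and Slc30a10 included, 7 were tested. Against Hepatocytes, 2 were called higher on D3, 5 in the passaged lines and 2 in IL6-iMHs, and scaled it was 1 in each, Slc30a4. Slc30a10 was the 1 called lower each time, and scaled 2 were called lower on D3. Before scaling, 66.0% of all genes were called on D3, 59.4% in the passaged lines and 32.6% in IL6-iMHs. Slc30a4 (ZnT4) was higher by 3.52 on D3 (scaled 2.51), 4.39 in the passaged lines (scaled 3.63) and 2.76 in IL6-iMHs (scaled 2.50), while from IL6-iHPCs to IL6-iMHs it fell, at -1.62 (scaled -1.13). Slc30a7 (ZnT7), an exporter into the Golgi, was called higher on D3 (2.05) and in the passaged lines (1.81), and both calls were lost on scaling, at 0.74 and 0.76.

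In the manganese list, 6 of 7 genes were tested. Against Hepatocytes, 3 were called higher and 1 lower on D3, 3 and 2 in the passaged lines, and 1 and 2 in IL6-iMHs, and scaled the counts were 1 and 1, 1 and 2, and 1 and 2. The unscaled counts stand beside 66.0%, 59.4% and 32.6% of all genes called. Atp2c1, a calcium and manganese pump of the Golgi, was called higher on D3 (2.19) and in the passaged lines (1.58), and both calls were lost on scaling, at 0.70 and 0.37.

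In the copper list, 12 genes including Mt1 and Mt2 were tested. Against Hepatocytes, 6 were called higher and 4 lower on D3, 6 and 3 in the passaged lines, and 4 and 3 in IL6-iMHs, and scaled 4 and 6, 4 and 6, and 4 and 3. The shares of all genes called before scaling were 66.0%, 59.4% and 32.6%. Cp, the copper carrier of plasma, was higher on D3 (3.17, scaled 1.55), in the passaged lines (2.45, scaled 1.11) and in IL6-iMHs (2.50, scaled 1.70). Sod1, the copper and zinc superoxide dismutase, was lower in these groups, at -3.36, -2.58 and -1.19, and by more scaled. Its copper chaperone Ccs was lower too, at -2.79, -2.27 and -1.08, and so was the copper importer Slc31a1, at -1.35, -1.43 and -1.11. From IL6-iHPCs to IL6-iMHs Sod1 (1.39) and Ccs (1.19) were called higher, and Slc31a1 (0.32) was not called.

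Counts of other lists against Hepatocytes stand beside shares of all genes called of 66.0% on D3, 62.9% on D14, 59.4% in the passaged lines and 32.6% in IL6-iMHs. Of 8 glucocorticoid response genes, 6 were called higher and 1 lower on D3 (scaled 3 and 1), 5 and 1 on D14 (scaled 4 and 2), 6 and 1 in the passaged lines (scaled 4 and 2) and 5 and 1 in IL6-iMHs (scaled 5 and 1). The acute phase list (12 genes) had 3 called higher and 3 lower on D3, in the passaged lines and in IL6-iMHs, and scaled 1 and 7, 1 and 8, and 2 and 4. The Nrf2 list (8 genes) had 6 called higher on D3, 4 in the passaged lines and 3 in IL6-iMHs, and none lower, and scaled 4, 2 and 2 higher and 1, 2 and 2 lower. Their part in the results for the metallothioneins was not tested.

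After partial hepatectomy both metallothioneins had risen by 6 h, the first time sampled. Mt1 was at 12.3, 20.3 and 16.9 FPKM in normal liver and 6352, 5530 and 5027 FPKM at PHX-6h, with ranks of 2665 to 3815 and 14 to 16 among all genes. Mt2 was at 2.92, 3.68 and 4.60 FPKM in normal liver and 3995, 3442 and 3658 FPKM at PHX-6h. The log2 fold change was 8.35 (SE 0.48, adjusted p = 3.7e-08) for Mt1 and 9.62 (SE 0.47, adjusted p = 5.79e-09) for Mt2. Slc39a14 rose with them from 22.1, 20.3 and 23.6 FPKM to 275, 155 and 209 FPKM, a log2 fold change of 3.18 (SE 0.21, adjusted p = 1.71e-07). At PHX-6h 4 of 6 members were called higher and none lower, with 16.3% of all genes called, of which 1279 were lower and 531 higher. Markers of other cells moved at the same time. Kupffer cell markers summed to 58.6 to 120 FPKM at PHX-6h against 166 to 267 FPKM in normal liver, with 7 of 8 called lower (4 scaled). Endothelial markers summed to 75.7 to 92.0 against 134 to 143 FPKM, with 3 of 8 called lower and 1 higher, and neutrophil markers to 38.2 to 39.8 against 1.59 to 6.91 FPKM. Their part in the results was not tested.

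The means of both metallothioneins were lower at 24 h, D3 and D7 than at 6 h, and both genes were still above normal on day 14. At PHX-24h Mt1 was at 1113, 3388 and 3534 FPKM and on D3 at 1284, 3047 and 602 FPKM, so that each of these groups held 1 sample far from the others. On D7 it was at 574, 506 and 589 FPKM and on D14 at 499, 491 and 784 FPKM. Mt2 was at 920, 2864 and 2594 FPKM at PHX-24h, at 706, 2022 and 434 FPKM on D3, and at 359, 319 and 356 FPKM on D7. On D14 Mt2 was at 325, 296 and 591 FPKM, above every normal liver. No PHX sample overlapped normal liver for either gene.

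The log2 fold change of Mt1 was 7.11 at PHX-24h, 6.28 on D3, 5.02 on D7 and 5.08 on D14, each with SE 0.48 and adjusted p between 9.63e-07 and 1.58e-05. That of Mt2 was 8.66, 7.51, 6.20 and 6.36, each with SE 0.47. The PHX-D3 sample with the most Mt1, replicate 2, also had the most Mt2 and Slc30a1. Its summed markers were the highest of the 3 for red blood cells (306 FPKM against 98.8 and 39.8), Kupffer cells (416 against 241 and 159), cholangiocytes (147 against 49.0 and 29.96), stellate cells (217 against 87.0 and 97.9) and neutrophils (35.5 against 12.7 and 6.24), and so was the acute phase list (77711 against 61750 and 22721). Its endothelial markers had the lowest sum of the 3 (70.2 against 117 and 99.7), and so had its hepatocyte markers (61025 against 61683 and 80676). The part of these differences was not tested. Without that replicate the change on D3 was 5.68 for Mt1 and 6.89 for Mt2. At PHX-24h, 3 members were called higher with 7.90% of all genes called. On D3 it was 3 members and 5.82%, on D7 2 members and 8.84%, and on D14 2 members and 2.98%.

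Kupffer cell markers summed to 970 to 1414 FPKM on D7 against 166 to 267 FPKM in normal liver, with no marker at 0, and the acute phase list had 11 of 12 genes called higher at 6 h, 12 at 24 h, 10 on D3, 5 on D7 and none on D14, when the metallothioneins remained called. On D14 limma called no acute phase gene, 1 of the 12 had an unadjusted p under 0.05, and their median was 0.43. The glucocorticoid list (8 genes) had 5 called higher and 1 lower at 6 h, and 3 and 1 at 24 h. It had 2 and 0 on D3, 3 and 0 on D7, and 1 and 0 on D14. At these times 16.3%, 7.90%, 5.82%, 8.84% and 2.98% of all genes were called. The part of these lists and of the Kupffer cell markers in the results was not tested.

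The ratio of Mt1 to Mt2 was 3.66 to 5.53 in normal liver and 1.38 to 1.61 at PHX-6h, and from 24 h to D14 it lay between 1.18 and 1.82, without overlap with normal liver. Mt3 and Mt4 did not pass the filter on low values in the liver table.

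Slc39a14 was at 59.3, 101 and 113 FPKM at PHX-24h and 66.4, 63.6 and 62.4 FPKM on D3, called at log2 fold changes of 1.95 (SE 0.21, adjusted p = 2.3e-05) and 1.50 (SE 0.21, adjusted p = 0.000286). On D7 it was at 19.1, 23.3 and 21.2 FPKM, overlapping normal liver with 1 sample below it, and on D14 at 35.5, 35.7 and 39.9 FPKM, above every normal liver (0.72, SE 0.21, adjusted p = 0.0285, short of 2-fold). Between 6 h and 24 h, a comparison chosen after the values were seen, Slc39a14 was the 1 member called, at -1.23 (SE 0.21, adjusted p = 0.000639), with 6.72% of all genes called. Without PHX-24h replicate 1 that change was -0.95, short of 2-fold. Mt1 changed by -1.24 (SE 0.48, adjusted p = 0.0555) in it and was not called, while scaled it was called, at -1.56 (adjusted p = 0.0302). Between D7 and D14, also chosen after the values were seen, no member was called by limma, with 7.79% of all genes called, and of the 6 members Slc39a14 (unadjusted p = 0.00218) and Mtf1 (unadjusted p = 0.034) had an unadjusted p under 0.05. Scaled, Slc39a14 was called, at 1.10 (adjusted p = 0.00445).

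Slc30a10 rose at PHX-6h, opposite to its fall in culture, from 8.33, 5.26 and 7.30 FPKM to 17.3, 13.8 and 13.7 FPKM, all above normal liver. Its log2 fold change was 1.01 (SE 0.20, adjusted p = 0.000731), just past 2-fold, and it fell to 0.85 without normal liver replicate 2 and 0.91 without PHX-6h replicate 1. It was at 7.72, 10.9 and 11.4 FPKM at 24 h and at 3.23 to 6.73 FPKM from D3 to D14, not called at these times. Slc30a1 was at 12.9, 9.79 and 9.39 FPKM in normal liver and 12.01, 12.5 and 6.02 FPKM at PHX-6h, and reached 17.6, 24.5 and 12.8 FPKM on D3 (0.69, SE 0.27, adjusted p = 0.0687). Mtf1 was between 1.60 and 3.40 FPKM in all livers. Neither was called at any time after PHX, and with 3 livers a group their 95% intervals at PHX-6h ran from -0.69 to 0.47 for Slc30a1 and from -0.42 to 0.18 for Mtf1.

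**Figure D5:**
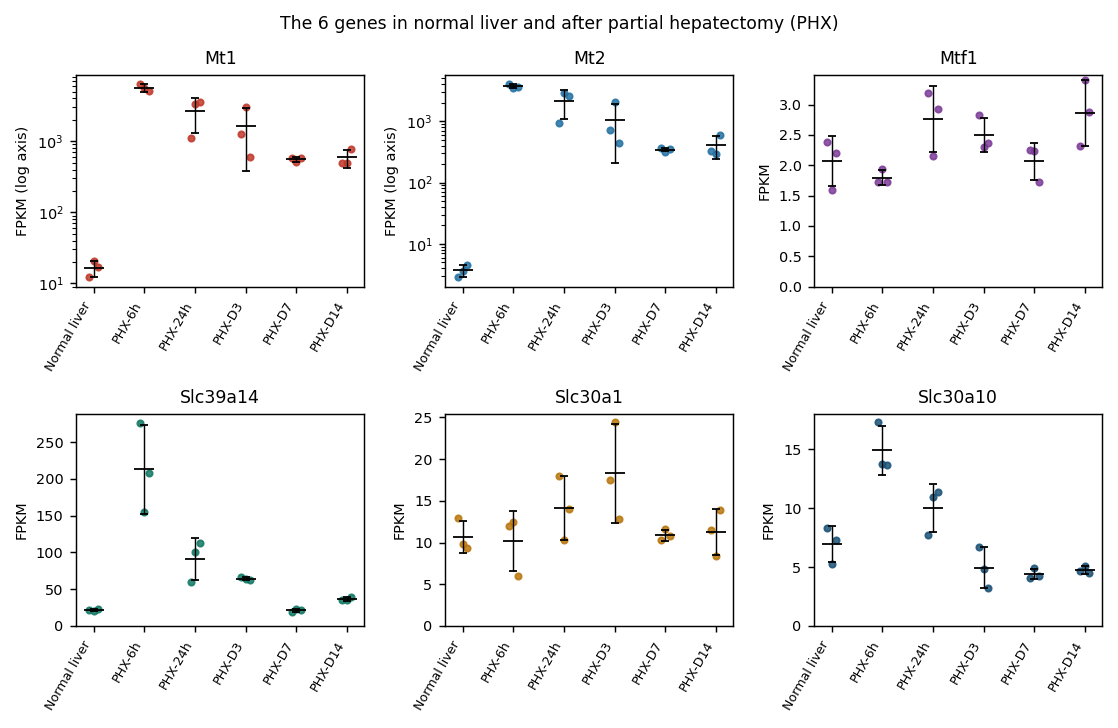
FPKM of the 6 genes in each liver of normal liver and the 5 times after PHX, with the mean (bar) and SD of 3 livers. Mt1 and Mt2 are on log axes and the others on axes from 0. Mt1 and Mt2 peak at PHX-6h, at 5637 and 3698 FPKM on average, and stay above normal on D14, while Slc39a14 and Slc30a10 peak at PHX-6h and Mtf1 stays below 3.5 FPKM.

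Among the transporters at PHX-6h, 1 of 11 ZIP importers tested was called higher, Slc39a14, and 1 lower, Slc39a8 at -1.22 (adjusted p = 2.86e-05), beside 16.3% of all genes called. Scaled, 2 were higher and none lower, Slc39a8 being at -0.91. Of the 7 ZnT exporters tested, Slc30a5 (ZnT5), an exporter into the secretory pathway, was called higher at 1.16 (adjusted p = 0.000229), from a mean of 9.82 FPKM in normal liver to 23.9 FPKM, beside Slc30a10. Scaled, 4 were called higher, with Slc30a4 (1.07) and Slc30a7 (1.06) added. In the manganese list 2 of 6 were called higher and 1 lower, and scaled 2 and none. In the copper list, Mt1 and Mt2 were called higher and Slc31a2 (-1.15, scaled -0.91) and the copper pump Atp7b (-1.40, scaled -1.17) lower.

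The genes whose group means were most like each member's are given as a description, by Pearson r of mean log2(FPKM + 1) over 11 cell groups or 6 liver groups. Depth differed between samples, from 49.3 to 88.8 M reads among the cells and from 52.0 to 79.2 M among the livers. In the cells, Mt2 was the most like Mt1 (r = 0.978), followed by Lcn2 (0.958) and Ndrg1 (0.942), and Tmsb10 (0.974) and Lcn2 (0.970) were the next most like Mt2. Slc39a14 was most like B4galt1 (0.970), Snx10 (0.950) and Creb3l2 (0.930), Slc30a1 most like Col12a1 (0.921), Fyco1 (0.920) and Tshz2 (0.918), and Slc30a10 most like C8a (0.925), Col5a3 (0.923) and Mbl1 (0.921). Mtf1 was most like Ube2r2 (0.967) and Stx17 (0.966). In the livers, Mt1 and Mt2 were again the most like each other (0.998), followed by Arf4 (0.994 with Mt1 and 0.990 with Mt2), Il6ra (0.984 with Mt1) and Adgrl2 (0.986 with Mt2). Slc39a14 was most like Slc16a6 (0.999), Cidec (0.991) and Clp1 (0.989). Slc30a1 was most like Phf3 (0.992), 1190002N15Rik (0.988) and Rasal2 (0.981), Slc30a10 like Nifk (0.999), Rbm45 (0.995) and Hnrnph2 (0.991), and Mtf1 like Tspan31 (0.965), Gm2260 (0.961) and Nup50 (0.951).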

How the data were processed

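RNA sequencing of 33 cell samples and 18 liver samples was analysed. The authors deposited tables of gene values per sample, which are read here as FPKM because their steps fit whole reads divided by gene length and depth, though the sources used here do not name the unit. Per the submitters' processing notes, reads were processed with TopHat 1.4.1 and Cufflinks 1.3.0 on mm10. Within a tolerance of 0.02 reads, whole reads were recovered for 18809 of 18828 genes with a value among the cells and 17327 of 17329 among the livers. The table of 9 samples from day 7 lists none of the 6 members and was not used.

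In R 4.3.3, limma 3.58.1 with trend was fitted to log2(FPKM + 1) for the 12328 cell genes and 11114 liver genes that reached 1 FPKM in no fewer than 3 samples, 1 fit per table and p-values adjusted over all genes by Benjamini-Hochberg. The fit was tested on simulated data. Depth was 49.3 to 88.8 M recovered reads in cells and 52.0 to 79.2 M in livers. FPKM hold both length and depth, so a gene's level can move when a few abundant genes do, which the median-ratio scaling addresses. Replicates of a group differed by more than sampling noise. Each was entered in the fit as 1 sample, although those of the cells are technical repeats. Levels are not compared across tables. Groups came from the labels. The alternatives were pseudocount 0.1, no filter, median-ratio scaling, quantile normalization, voom on recovered reads, a replicate block, no fold threshold, and leaving out each sample in turn. The genes named are the 6 members, for each transporter and metal list the 2 largest rises and falls past the threshold in 4 comparisons, and the 3 genes most like each member, of which 1 is not reported here. Other genes are named only where a result turns on them. The members and lists were chosen with earlier results of these data known. Promoters came from RefSeq, and motifs were searched in Python 3.11.15.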

Additional observations from a re-analysis of the deposited data

Results flagged for a closer look

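The change of Slc30a1 on maturation differed between lines, with its level falling in both P10 lines and not in the others. The difference was 1.90 (log2, SE 0.10, adjusted p = 2.56e-16 by limma) between mouse-1 (P35) and mouse-1 (P10), and 2.21 (SE 0.09, adjusted p = 2.92e-19) between clone-1 (P20) and the mean of both P10 lines. Scaled, these were 2.35 and 2.24.

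The change of Slc30a10 also differed, by 1.69 (SE 0.09, adjusted p = 4.65e-16 by limma) between passages 35 and 10 of mouse-1 and by 1.34 (SE 0.09, adjusted p = 4.54e-13) between mouse-2 and mouse-1 at passage 10. Unlike Slc30a1 it fell in mouse-1 (P10) and not in mouse-2 (P10), where it changed by 0.34. The P35 line had no Slc30a10 read before maturation.

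The change of Mt2 was lower by -1.05 (SE 0.20, adjusted p = 2.61e-05) in mouse-1 (P35) than in mouse-1 (P10), and scaled this was -0.58, short of 2-fold. Each result was picked out because a test of the difference between lines passed the threshold.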

How the results depend on the processing

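Most values kept their direction and their side of the threshold: of the gene values under an alternative other than leaving out a sample, 363 did, 5 passed the threshold newly, 10 no longer passed and 18 changed sign, and with 1 sample left out the numbers were 594, 1, 2 and 15. The 18 came from scaling or quantile normalization. They concern Slc30a1, Mtf1 and, in maturation, Mt2, whose direction is not settled in those comparisons, and they include Mtf1 on D14, which was called higher. By scaling and quantile normalization, Slc30a1 on D3 became -0.73 and -0.50, Mtf1 in passaged IL6-iHPCs -0.31 and -0.67 and in IL6-iMHs -0.41 and -0.61. After PHX they gave 0.23 and 0.16 for Slc30a1 and 0.13 and 0.17 for Mtf1 at 6 h, and -0.12 and -0.17 for Slc30a1 and -0.11 and -0.27 for Mtf1 on D7. Quantile normalization gave -0.10 for Mtf1 on D14 and 0.058 for its maturation, and scaling gave 0.39 for Mt2 and 0.029 for Slc30a1 in maturation. The cause was not tested.

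The number of members called on D14 against D3 was 1, and 2 with pseudocount 0.1, with median-ratio scaling, with voom on recovered reads and without IL6-iHPCs-D14 (P0) replicate 3, and 6 with no fold threshold. For IL6-iMHs against IL6-iHPCs it was 0, and 1 with voom and 5 with no fold threshold. For the difference of maturation between lines, calls were added over all contrasts between lines, so that a member can add several. There were 5 such calls, and 12 with no fold threshold. At the main setting, 10.2% of all genes were called on D14 against D3 and 28.1% for IL6-iMHs against IL6-iHPCs. Between lines it was 33.7% (mouse-1, P35 and P10), 14.7% (mouse-2 and mouse-1, P10) and 32.8% (clone-1 and both P10 lines). Shares of all genes under the alternatives are not given here, so these counts are not read as particular to the members.

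Leaving out 1 sample changed the sign of small values. The ranges were as follows. Slc30a10, IL6-iMHs vs IL6-iHPCs of the same line ran from -0.007 to 0.035. Slc30a1, PHX-6h vs normal liver ran from -0.28 to 0.19. Slc39a14, PHX-D7 vs normal liver ran from -0.12 to 0.014. Slc30a1, PHX-D7 vs normal liver ran from -0.044 to 0.17. Mtf1, PHX-D7 vs normal liver ran from -0.11 to 0.089. Slc30a1, PHX-D14 vs normal liver ran from -0.10 to 0.24.

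The replicate numbers do not pair the samples, since deviations of equally numbered samples had a median correlation of -0.02 in cells and -0.06 in livers. A replicate block changed no count of members called, for example 4 at PHX-6h and 5 on D3. The main fit called 16.3% and 66.0% of all genes there. No test of Mtf1 at day 7 was run, as that table lists no member.

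Technical repeats limit the cell results, and n = 3 limits the livers. The lowest depth was 49.3 M reads.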
